A study of Mus musculus with 35 samples.

Results

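Nuclear genes of respiratory complex I were compared between interscapular brown fat (iBAT) and epididymal white fat (eWAT) of the mouse. The genes were taken by symbol: every measured gene whose name begins with Ndufa, Ndufb, Ndufc, Ndufs or Ndufv, including Ndufab1 and the Ndufaf genes. This gave 49 genes of the 18947 measured, of which 7 were core subunits, 34 supernumerary subunits or their copies, and 8 assembly factors (Ndufaf). The symbol rule itself uses no measured value, though the gene family was picked with earlier results of these data known. The messenger RNA came from 4 iBAT and 4 eWAT samples of male C57BL/6J mice of 15 weeks. The animals received no treatment, no genotype beyond the strain is named, and the tissues were whole fat pads frozen at dissection. The series also holds 18 miRNA libraries and 9 Argonaute CLIP samples, which are not analysed here. The labels do not say whether the 4 samples of a tissue came from separate animals, so p-values measure the spread between these samples, which may be technical.

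Complex I, or NADH:ubiquinone oxidoreductase, is the entry point for electrons from NADH into the respiratory chain of the inner mitochondrial membrane. It is shaped like an L. The matrix arm holds the N module, where NADH is oxidised on a flavin, and the Q module, where a chain of iron-sulfur clusters hands the electrons to ubiquinone. The membrane arm pumps protons. The core subunits, conserved from bacteria, carry out the chemistry; 7 of them are encoded in the nucleus and 7 in mitochondrial DNA. The supernumerary subunits surround and stabilise that core, and the assembly factors help to build the enzyme without remaining in it. Brown adipocytes are packed with mitochondria and burn fuel to make heat through the uncoupling protein Ucp1, which runs on the proton gradient that complex I helps to make. White adipocytes of the epididymal pad store fat and hold far fewer mitochondria.

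All fold changes come from the authors' deposited table. It gives, for each gene, a base mean (the mean normalized count over all libraries), a log2 fold change with its standard error (SE), and a p-value with its adjusted value. A gene was called at an adjusted p under 0.05 over all genes. No value of a single library was at hand, and the depth of the mRNA libraries is unknown. The brown fat genes Ucp1 and Cidea have positive fold changes and the white fat genes Wt1 and Lep negative ones, so positive means higher in iBAT. With the sign set this way, 14 of 14 brown adipocyte markers were called higher in iBAT and 12 of 12 white adipocyte markers lower per the authors' deposited table. These lists hold the 4 genes that set the sign and are not independent of it, so they cannot check the tissue labels. They were also chosen with earlier results of these data known. Over all genes, 20.9% were called higher in iBAT and 27.1% lower. Markers of other cells differed too per the authors' deposited table: 26 of 26 skeletal muscle markers were higher in iBAT (median log2 fold change 6.72, range 1.26 to 17.69), 10 of 10 macrophage markers were lower (median -1.89), and 8 of 8 epididymis epithelium markers were lower (median -15.20). The muscle list runs from the intermediate filament gene Des (1.26 ± 0.45) to the fast myosin gene Myh4 (17.69 ± 1.36) per the authors' deposited table. Muscle is itself rich in mitochondria, and the part of muscle, of macrophages or of epididymis epithelium in the complex I values was not tested. In whole tissue, fewer cells of a type and less RNA per cell cannot be told apart.

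Complex I genes were higher in brown fat almost throughout. Of the 49 genes, 44 were called higher in iBAT, 0 lower, and 5 were not called, with a median log2 fold change of 1.62 per the authors' deposited table. Over all 18947 genes, 20.9% were called higher in iBAT and 27.1% lower, with a median of -0.10, in the same table. At an unadjusted p under 0.05 in the deposited DESeq output, the count of lower members was still 0 and that of higher members was 45. By that rule, 5662 of all 18947 genes were lower and 4429 higher per the authors' deposited table. Of the 44 called members, 39 were higher by at least 1 on the log2 scale, a rule that 11% of all genes met in the iBAT direction per the authors' deposited table. The 95% interval of the log2 fold change (± 1.96 SE) lay wholly above 0 for 44 members and wholly above 1 for 28 per the authors' deposited table. The share of all genes meeting either interval rule was not computed. Other call rules, given with the processing, left the member counts at 44 and 0. The shares of all genes called higher and lower in iBAT were then 19.4% and 23.4% with p from fold change over SE, 22.4% and 21.2% after centring on the median of all genes, 16.6% and 22.1% at an adjusted p under 0.01, and 25.5% and 31.4% among genes with a base mean of at least 10. The 5 members not called were a paralog of a respiratory subunit (Ndufa4l2), 2 copies with very low counts (Ndufab1-ps and Ndufs6b) and 2 assembly factors (Ndufaf3 and Ndufaf8).

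**Figure D1:**
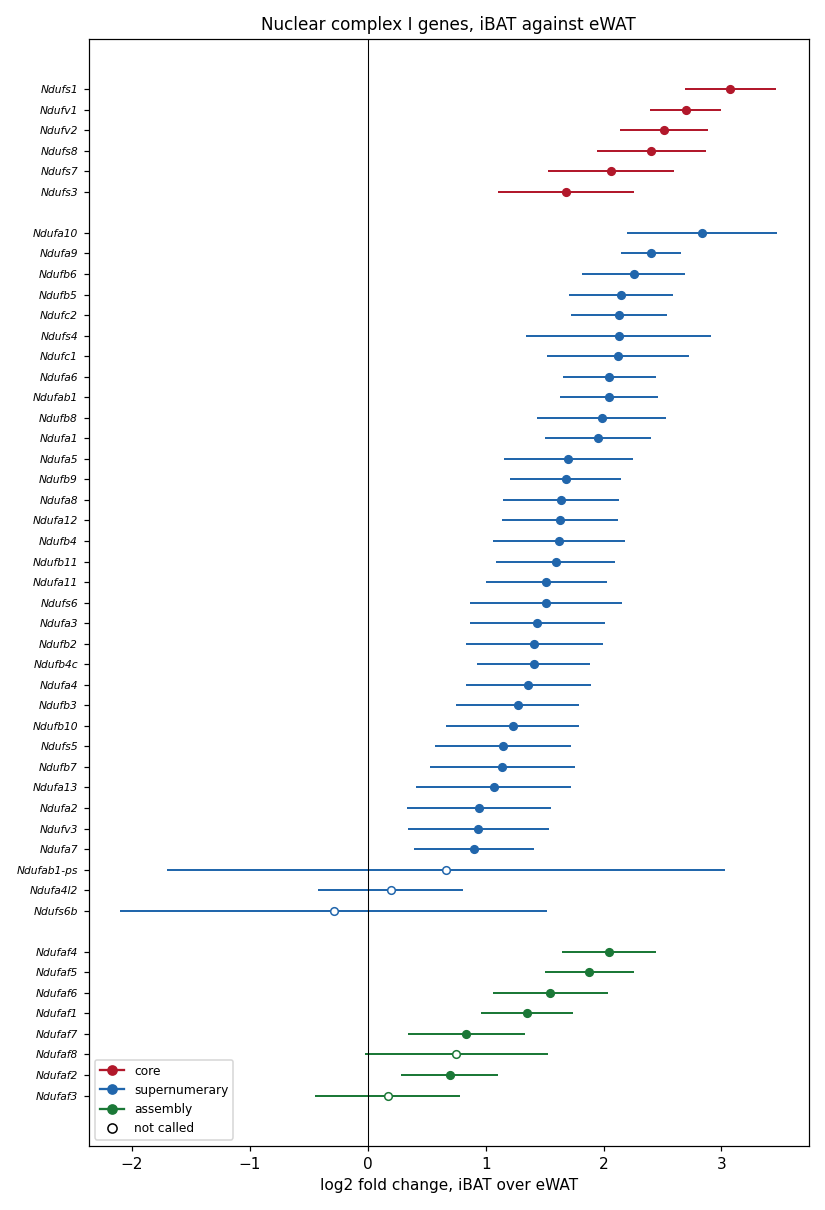
Log2 fold change of 48 of the 49 nuclear complex I genes, iBAT over eWAT, with its 95% interval as a line; colours mark core, supernumerary and assembly genes, and open points were not called. The 6 core genes drawn lie between 1.68 and 3.08, and the open points are Ndufab1-ps, Ndufa4l2, Ndufs6b, Ndufaf8 and Ndufaf3.

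Since the members were higher in iBAT together, their promoters were searched for motifs of factors known to act on respiratory genes: Nrf1, Yy1, the ETS factor Gabpa and the estrogen-related receptors. RefSeq windows (build GRCm38.p6) of 300 bases, from 250 before to 50 after the start site, were matched for 40 of the 49 genes in 42 windows. Among those not matched were Ndufa2, Ndufa4l2, Ndufab1-ps, Ndufaf6, Ndufb4c, Ndufb9, Ndufs1 and Ndufs6b. Motifs were searched on both strands as exact letters, N standing for any base. The Nrf1 core GCGCANGCG was in 26.2% of member windows and 10.5% of the 16639 windows of measured genes, and its stricter form GCGCATGCG in 9.52% of member windows and 2.86% of those of measured genes. Those forms overlap, since every strict match is also a match of the looser form. The Yy1 motif AANATGGCG was in 19% of member windows and 3.82% of those of measured genes. The ETS motif CCGGAAG, in 14.3% of member windows and 13.9% of those of measured genes, and the estrogen-related receptor motif TNAAGGTCA, in 2.38% of member windows and 0.871% of those of measured genes, were searched alongside. The last rests on 1 window, that of Ndufb4. Over all 32851 windows the shares were 6.25% and 1.75% for the looser and strict Nrf1 core, 2.38% for Yy1, 8.86% for ETS and 1.28% for the receptor motif. Median GC content was 59.3% in member windows and 59% in those of measured genes, and no test was made of any share.

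The Nrf1 core is shown in the 4 genes with a strict match, Ndufa8 (chr2:36049289-36049588, minus strand), Ndufa11 (chr17:56717512-56717811, plus strand), Ndufaf4 (chr4:24897833-24898132, plus strand) and Ndufaf5 (chr2:140170396-140170695, plus strand), printed 5′ to 3′ on the gene's strand. The start site used for Ndufaf5 lies past the gene's first annotated base, 140170584. Capitals mark letters of a match to either Nrf1 form.
Ndufa8: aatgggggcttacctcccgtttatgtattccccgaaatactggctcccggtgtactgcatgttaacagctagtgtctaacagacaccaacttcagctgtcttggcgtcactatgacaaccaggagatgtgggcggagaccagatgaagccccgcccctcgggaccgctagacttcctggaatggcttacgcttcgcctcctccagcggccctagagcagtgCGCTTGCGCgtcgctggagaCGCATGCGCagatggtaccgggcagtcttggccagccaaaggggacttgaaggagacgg
Ndufa11: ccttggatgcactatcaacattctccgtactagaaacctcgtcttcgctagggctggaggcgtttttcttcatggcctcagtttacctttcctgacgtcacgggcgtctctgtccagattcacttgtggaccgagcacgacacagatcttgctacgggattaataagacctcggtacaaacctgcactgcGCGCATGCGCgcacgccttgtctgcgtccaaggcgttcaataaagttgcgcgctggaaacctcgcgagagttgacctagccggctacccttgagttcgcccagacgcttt
Ndufaf4: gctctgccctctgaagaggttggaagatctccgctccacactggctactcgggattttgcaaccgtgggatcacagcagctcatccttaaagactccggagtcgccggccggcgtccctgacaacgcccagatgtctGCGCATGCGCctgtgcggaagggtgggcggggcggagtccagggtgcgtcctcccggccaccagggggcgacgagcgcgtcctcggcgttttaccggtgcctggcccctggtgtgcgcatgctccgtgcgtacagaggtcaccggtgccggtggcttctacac
Ndufaf5: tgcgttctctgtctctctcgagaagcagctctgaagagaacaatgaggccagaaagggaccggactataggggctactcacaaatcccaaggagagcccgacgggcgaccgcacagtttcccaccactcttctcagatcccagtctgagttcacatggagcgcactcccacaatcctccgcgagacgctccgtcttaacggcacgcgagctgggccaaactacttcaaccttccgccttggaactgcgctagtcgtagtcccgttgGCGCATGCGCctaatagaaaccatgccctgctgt

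Ndufa8 carries 2 copies of the looser form before its start site, 1 of them strict, and in the other 3 genes the match reads the same on both strands with an offset of 1 base. The log2 fold changes of these genes were 1.64 (Ndufa8), 1.51 (Ndufa11), 2.05 (Ndufaf4) and 1.88 (Ndufaf5) per the authors' deposited table. Over the 10 members with the looser form the median log2 fold change was 1.63, and over the 30 without it 1.66, per the authors' deposited table.

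The Yy1 motif is shown in the core gene Ndufs7 (chr10:80249199-80249498, plus strand) and in Ndufa9 (chr6:126849095-126849394, minus strand), the member with the smallest SE. The Ndufs7 window lies wholly within the gene as annotated (80249105 to 80256794), so its start site is not the gene's first base. Capitals mark the motif.
Ndufs7: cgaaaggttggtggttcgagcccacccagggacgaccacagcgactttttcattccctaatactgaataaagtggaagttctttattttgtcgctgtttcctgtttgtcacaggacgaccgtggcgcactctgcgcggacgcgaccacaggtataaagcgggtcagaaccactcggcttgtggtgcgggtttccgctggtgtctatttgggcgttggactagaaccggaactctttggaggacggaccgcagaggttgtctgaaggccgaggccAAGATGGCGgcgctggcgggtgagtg
Ndufa9: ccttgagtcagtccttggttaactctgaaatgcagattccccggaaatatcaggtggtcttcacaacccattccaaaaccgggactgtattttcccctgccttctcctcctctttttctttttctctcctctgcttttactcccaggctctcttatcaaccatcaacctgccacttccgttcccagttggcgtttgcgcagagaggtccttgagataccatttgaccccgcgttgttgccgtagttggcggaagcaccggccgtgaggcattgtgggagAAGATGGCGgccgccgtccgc

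All 8 matches of this motif, in Ndufa7, Ndufa9, Ndufaf8, Ndufb11, Ndufc1, Ndufs4, Ndufs6 and Ndufs7, were on the gene's own strand, and 6 began 10 to 35 bases after the start site. Members with the motif had a median log2 fold change of 1.83 (8 genes) and those without it 1.63 (32 genes) per the authors' deposited table. The motif holds the letters ATG, those of a start codon, and whether any match is a translation start was not tested. A match of letters is a description and does not show that a factor binds there.

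Core subunits of the N module, which takes electrons from NADH, had the highest fold changes of the nuclear core. Ndufs1, the large iron-sulfur subunit of the matrix arm (chromosome 1, 63143592 to 63176822, GRCm38), had a base mean of 21650 per the authors' deposited table. Its log2 fold change was 3.08 ± 0.19 (SE) per the authors' deposited table, or 8.43-fold higher in iBAT with a 95% interval of 6.49 to 11 (adjusted p = 3.22e-56). If all libraries weigh equally in the base mean and the fold change is the ratio of the tissue means, these values imply 38708 normalized counts in iBAT and 4592 in eWAT. Ndufv1 (chromosome 19, 4007499 to 4012755), which binds NADH and the flavin, stood at 2.70 ± 0.15, a 6.48-fold difference (adjusted p = 8.56e-73), per the authors' deposited table. Its implied means were 33171 in iBAT and 5122 in eWAT. Ndufv2 (chromosome 17, 66078795 to 66101559), which carries an iron-sulfur cluster beside the flavin site, stood at 2.51 ± 0.19, a 5.71-fold difference (adjusted p = 2.12e-40), per the authors' deposited table, and its implied means were 26309 in iBAT and 4610 in eWAT.

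The 4 core subunits of the Q module were higher in iBAT as well, by 3.21-fold to 5.29-fold per the authors' deposited table. Ndufs8 (chromosome 19, 3908863 to 3912774), an iron-sulfur subunit on the path to ubiquinone, was the highest of them at 2.40 ± 0.23 (adjusted p = 1.12e-24) per the authors' deposited table, with implied means of 12319 in iBAT and 2328 in eWAT. It lies on the same chromosome as Ndufv1, 94724 bases away in the RefSeq annotation. Ndufs7 (chromosome 10, 80249105 to 80256794), which holds the last iron-sulfur cluster before ubiquinone and whose promoter is printed above, stood at 2.06 ± 0.27 (adjusted p = 5.39e-14) per the authors' deposited table, with implied means of 10516 in iBAT and 2517 in eWAT. Ndufs3 (chromosome 2, 90894627 to 90904721), a subunit without a cofactor around which the Q module forms, had the lowest value of the nuclear core at 1.68 ± 0.29 (adjusted p = 1.46e-08) per the authors' deposited table. The 95% interval of Ndufs3, 1.11 to 2.25, overlaps those of Ndufs7 and Ndufs8 and lies below that of Ndufs1, 2.70 to 3.45, per the authors' deposited table. Fold changes of different genes come from the same libraries, and without values per library no test of a difference between genes could be made.

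**Figure D2:**
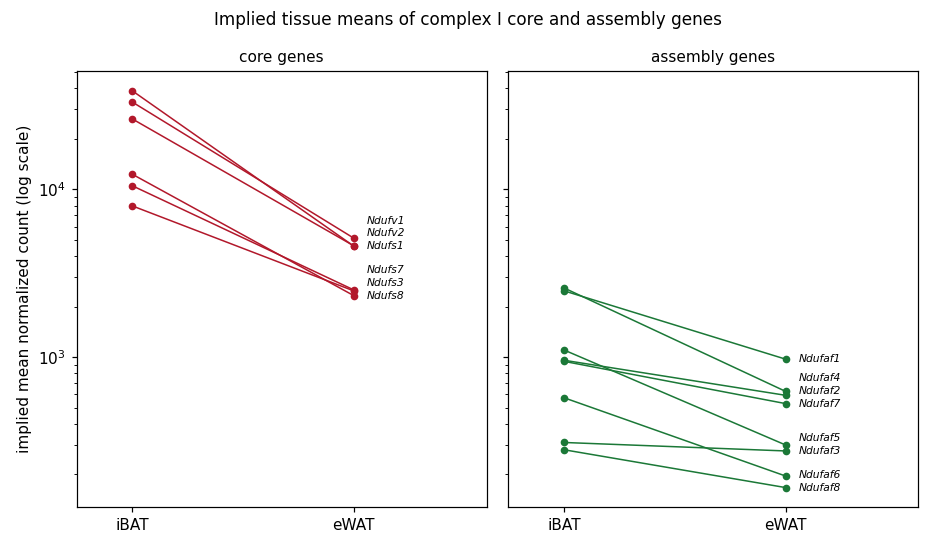
Implied mean normalized count (log axis) of 6 core and 8 assembly genes in iBAT and eWAT, each gene a line, computed from base mean and fold change. The 6 core lines all fall toward eWAT, from Ndufs1 at 38708 in iBAT and 4592 in eWAT down to Ndufs3 at 7973 in iBAT and 2484 in eWAT; counts of different genes are not scaled by length.

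Of the 34 genes in the supernumerary class, 31 were called higher in iBAT, 0 lower and 3 were not called, with a median log2 fold change of 1.55 per the authors' deposited table. Without Ndufa4, Ndufa4l2 and the 3 copies, all 29 remaining were called higher, from 0.90 to 2.83 with a median of 1.63, per the authors' deposited table. The highest values belonged to Ndufa10, Ndufa9 and Ndufb6. Ndufa10, a kinase-like protein on the matrix face of the membrane arm, stood at 2.83 ± 0.32 (adjusted p = 2.06e-18) per the authors' deposited table, 7.13-fold higher in iBAT, with implied means of 4215 in iBAT and 592 in eWAT. Ndufa9, which binds a nicotinamide nucleotide at the junction of the arms, stood at 2.40 ± 0.12 (adjusted p = 3.06e-81), with the smallest SE of the 49 genes per the authors' deposited table. Ndufb6, of the distal membrane arm, stood at 2.25 ± 0.22 (adjusted p = 3.52e-24) per the authors' deposited table. The lowest called values were those of Ndufa7 (0.90 ± 0.25, adjusted p = 0.000836), Ndufv3 (0.94 ± 0.30, adjusted p = 0.00332) and Ndufa2 (0.94 ± 0.31, adjusted p = 0.00347) per the authors' deposited table. All 3 sit in the N module, beside the core genes with the highest fold changes. Ndufv3 is a small subunit at the tip of the matrix arm with splice isoforms that differ between tissues, and Ndufa2 has a thioredoxin-like fold.

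By module, all 35 subunit genes placed in a module were called higher in iBAT per the authors' deposited table. Median log2 fold changes were 1.84 in the N module (10 genes), 2.11 in the Q module (6 genes), 1.64 in the proximal membrane arm (9 genes) and 1.61 in the distal membrane arm (10 genes) per the authors' deposited table. The N module had the widest range, 0.90 to 3.08, and its 3 core genes (2.51 to 3.08) lay above its 7 supernumerary genes (0.90 to 2.13) as point values, while the 95% interval of Ndufs4 overlaps all 3 of theirs, per the authors' deposited table. In the Q module the 4 core genes (1.68 to 2.40) and the 2 supernumerary genes (1.70 and 2.40) covered the same range per the authors' deposited table. Differences between classes and modules were not tested.

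The other supernumerary genes of the N module had intermediate values. Ndufs4, whose loss in mice gives a model of Leigh syndrome, stood at 2.13 ± 0.39 with a base mean of 368, and Ndufs6, a zinc-binding subunit, at 1.51 ± 0.32 per the authors' deposited table. Ndufa6, a subunit of the LYR family that holds an acyl carrier protein, stood at 2.05 ± 0.20, and Ndufa12, a late addition to the matrix arm, at 1.63 ± 0.25 per the authors' deposited table. In the Q module, Ndufa5 stood at 1.70 ± 0.28 per the authors' deposited table. Ndufab1, the mitochondrial acyl carrier protein, is bound in both arms and also serves mitochondrial fatty acid synthesis. It stood at 2.05 ± 0.21 (adjusted p = 5.34e-22) per the authors' deposited table, with implied means of 16143 in iBAT and 3908 in eWAT.

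In the proximal membrane arm, Ndufc2 (2.13 ± 0.20), Ndufc1 (2.12 ± 0.30) and the small X-linked subunit gene Ndufa1 (1.95 ± 0.22) followed Ndufa10 per the authors' deposited table. Ndufa8 (1.64 ± 0.25) and Ndufs5 (1.15 ± 0.29), which are held in the intermembrane space by disulfide bonds, differed less from 0 per the authors' deposited table. Ndufa11 (1.51 ± 0.26), Ndufa3 (1.44 ± 0.29) and Ndufa13 (1.07 ± 0.33, adjusted p = 0.00193), also known as GRIM-19, completed that arm per the authors' deposited table. In the distal arm, Ndufb5 (2.15 ± 0.22) and Ndufb8 (1.98 ± 0.27) followed Ndufb6, and Ndufb9, another LYR protein, stood at 1.68 ± 0.24 per the authors' deposited table. Ndufb4 (1.62 ± 0.28), the X-linked Ndufb11 (1.60 ± 0.25), Ndufb2 (1.41 ± 0.29), Ndufb3 (1.27 ± 0.26), Ndufb10 (1.23 ± 0.28) and Ndufb7 (1.14 ± 0.31, adjusted p = 0.000387) made up the rest per the authors' deposited table. Ndufb1 is not analysed here.

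**Figure D3:**
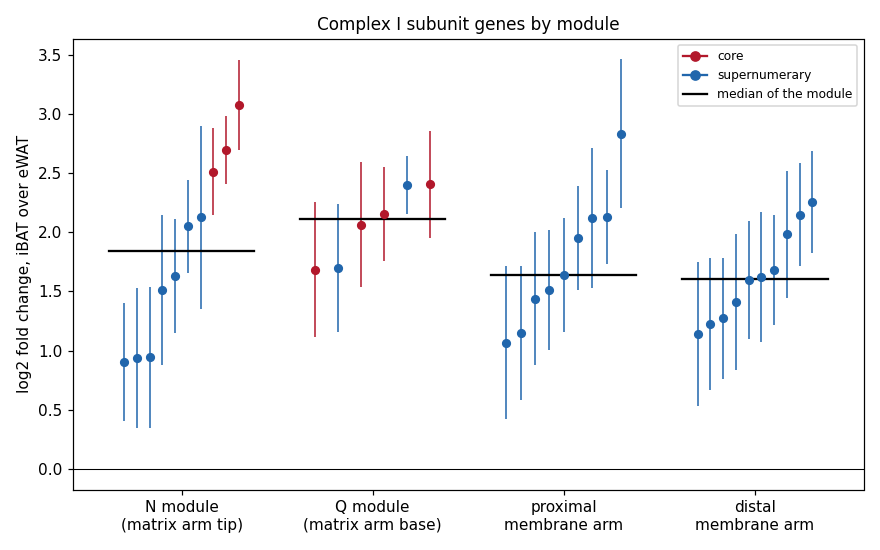
Log2 fold change (iBAT over eWAT) of the subunit genes by module of complex I, with 95% intervals; red points are core genes, blue points supernumerary genes, and black bars the module medians. The 3 core genes of the N module lie from 2.51 to 3.08, above its 7 supernumerary genes.

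Several genes with a complex I name need separate reading. Ndufa4 was named as a complex I gene but its protein has been described as a subunit of complex IV, and it was higher in iBAT at 1.36 ± 0.27 (adjusted p = 7.12e-07) per the authors' deposited table. Its paralog Ndufa4l2, known as a hypoxia-induced gene, had 0.19 ± 0.31 (adjusted p = 0.62), with implied means of 176 in iBAT and 153 in eWAT, per the authors' deposited table. The 95% interval of Ndufa4l2, -0.41 to 0.80, lies below that of Ndufa4, 0.84 to 1.89, per the authors' deposited table. Ndufb4c, a copy of Ndufb4, was called higher at 1.41 ± 0.24 with a base mean of 7096, beside 1.62 ± 0.28 and a base mean of 1699 for Ndufb4, per the authors' deposited table. Reads of such copies can be assigned to either gene, so the separate values of Ndufb4 and Ndufb4c are uncertain. The pseudogenes Ndufab1-ps (0.66 ± 1.20, base mean 2.9) and Ndufs6b (-0.29 ± 0.92, base mean 1.52) had very low counts and were not called per the authors' deposited table. Of the 49 genes, 10 overlap a protein-coding gene in the RefSeq annotation, among them Ndufv2 (with Ankrd12), Ndufa13 (Tssk6) and Ndufb11 (Rbm10). The library kit keeps the strand, but whether the quantification used it is not stated in the sources used here.

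Assembly factors were higher in iBAT by less, and not all of them. Of 8 Ndufaf genes, 6 were called higher, 0 lower and 2 were not called, beside 20.9% higher and 27.1% lower over all genes. Their median log2 fold change was 1.09 per the authors' deposited table. Ndufaf4 (2.05 ± 0.20, adjusted p = 6.15e-24) and Ndufaf3 (0.17 ± 0.31, adjusted p = 0.673) encode partners that work together on the Q module and stood at opposite ends of the class per the authors' deposited table. The implied means of Ndufaf4 were 2586 in iBAT and 626 in eWAT, and those of Ndufaf3 310 in iBAT and 276 in eWAT. Ndufaf5 and Ndufaf8, partners in the hydroxylation of an arginine of Ndufs7, stood at 1.88 ± 0.19 (adjusted p = 1.45e-22) and 0.75 ± 0.39 (adjusted p = 0.074) per the authors' deposited table. Ndufaf8 had the lowest base mean of the class, 224, and its unadjusted p was under 0.05 per the authors' deposited table. Ndufaf7, an arginine methyltransferase, stood at 0.84 ± 0.25 (adjusted p = 0.00153) per the authors' deposited table. Ndufaf6, a factor of early assembly, stood at 1.55 ± 0.24, and Ndufaf1, of the membrane arm assembly complex, at 1.35 ± 0.19 per the authors' deposited table. Ndufaf2, a paralog of Ndufa12 that holds its place until late in assembly, stood at 0.69 ± 0.21 (adjusted p = 0.00178) per the authors' deposited table, against 1.63 ± 0.25 for Ndufa12 itself.

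Assembly factors with other names gave a like picture. Of 10 measured, 7 were called higher in iBAT, 0 lower and 3 were not called, beside 20.9% higher and 27.1% lower over all genes. Their median was 0.99 per the authors' deposited table. Ecsit (1.90 ± 0.25), a partner of Ndufaf1, and Foxred1 (1.88 ± 0.15), an oxidoreductase-like factor, were the highest per the authors' deposited table. Acad9, a dehydrogenase-like partner of Ndufaf1 and Ecsit, stood at 0.92 ± 0.14 (adjusted p = 9.4e-10), and Tmem126b of the same complex was not called at 0.30 ± 0.20 (adjusted p = 0.201) per the authors' deposited table. Nubpl, which delivers iron-sulfur clusters to complex I, stood at 0.84 ± 0.15 per the authors' deposited table. Dmac1 was the lowest at 0.09 ± 0.27 (adjusted p = 0.811) per the authors' deposited table.

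**Figure D4:**
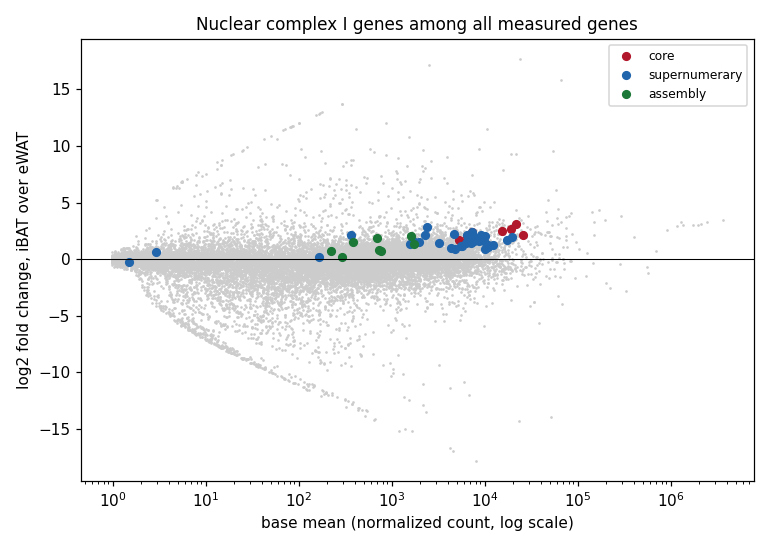
Log2 fold change (iBAT over eWAT) against base mean (log axis) for all 18947 genes in grey, with complex I core (red), supernumerary (blue) and assembly (green) genes on top. The core genes have base means of at least 5228 and log2 fold changes of 1.68 to 3.08, and the 2 blue points at the far left are Ndufab1-ps and Ndufs6b.

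The complex I subunits that the nucleus does not encode had a higher median log2 fold change than the 49 nuclear members (1.62). All 7 mitochondrially encoded genes were called, with a median log2 fold change of 3.05 per the authors' deposited table, from mt-Nd6 (1.92 ± 0.13) and mt-Nd5 (2.59 ± 0.32) through mt-Nd1 (2.93 ± 0.22), mt-Nd4 (3.05 ± 0.28), mt-Nd3 (3.30 ± 0.18) and mt-Nd2 (3.30 ± 0.27) to mt-Nd4l (3.46 ± 0.53). The lowest, mt-Nd6, is the complex I subunit encoded on the other strand of mitochondrial DNA. Its 95% interval, 1.67 to 2.17, overlaps that of Ndufs3, 1.11 to 2.25, the lowest of the nuclear core, per the authors' deposited table. As a point value Ndufs1, the highest nuclear member at 3.08, lies above mt-Nd6, mt-Nd5, mt-Nd1 and mt-Nd4. A difference between the mitochondrial and nuclear genes was not tested.

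Beside the other respiratory complexes, the complex I genes were not set apart by their direction. Nuclear subunits of complex II were all called higher in iBAT, 4 of 4, with a median of 2.62, and those of complex III, 9 of 9, with a median of 2.14, per the authors' deposited table. For complex IV the count was 14 of 16 with a median of 1.90, from Cox8c (-1.15 ± 1.97, not called, base mean 2.05) to Cox8b (7.90 ± 0.17) per the authors' deposited table. For complex V it was 12 of 15 with a median of 1.64 per the authors' deposited table. Atp5g1, a gene for the membrane ring subunit (base mean 1050), was called lower at -1.35 ± 0.25 (adjusted p = 1.17e-07). Atp5g3, another gene for that subunit (base mean 6622), was not called at -0.17 ± 0.19 (adjusted p = 0.474) per the authors' deposited table. The highest value among nuclear complex I genes, 3.08 for Ndufs1, lies below those of the complex IV isoform genes Cox6a2 (6.74 ± 0.37), Cox7a1 (7.44 ± 0.30) and Cox8b per the authors' deposited table. Cox7a1 and Cox8b are also on the brown adipocyte list. The skeletal muscle markers had a median of 6.72 per the authors' deposited table, and the part of muscle in these isoform values was not tested. Complexes I and II both pass electrons to ubiquinone; the 7 nuclear core genes of complex I spanned 1.68 to 3.08 and the 4 complex II genes 2.48 (Sdhc) to 2.79 (Sdha) per the authors' deposited table. In complex III the range ran from Uqcr11 (1.53 ± 0.32) to Cyc1 (2.98 ± 0.27), and the highest complex V value was that of Atp5a1 (2.39 ± 0.13), per the authors' deposited table. The share of all genes called higher in iBAT was 20.9%, and no test between complexes was made.

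**Figure D5:**
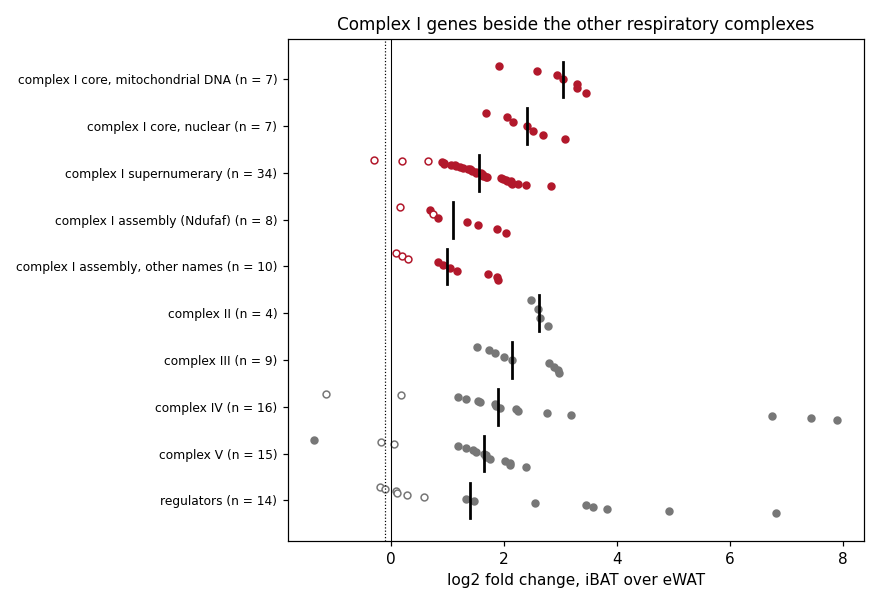
Log2 fold change (iBAT over eWAT) of complex I gene groups (red) and of the other complexes and the regulators (grey), each point a gene, open where not called, with the group median as a black bar. The dotted line marks the median of all genes, -0.10; medians run from 3.05 for the mitochondrially encoded genes to 0.99 for assembly factors with other names.

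Genes for known regulators of respiratory genes were not all called. Of 14, 8 were called higher in iBAT (57.1%), 0 lower and 6 were not called per the authors' deposited table. The shares over all genes were 20.9% higher and 27.1% lower. The coactivator genes Perm1 (6.82 ± 0.22), Ppargc1b (4.93 ± 0.21) and Ppargc1a (3.58 ± 0.31), and the estrogen-related receptor genes Esrrg (3.83 ± 0.55), Esrrb (3.46 ± 0.49) and Esrra (2.56 ± 0.18), were each higher in iBAT by more than the complex I median per the authors' deposited table. Gabpa, an ETS factor (1.48 ± 0.36, adjusted p = 6.57e-05), and Tfam, the mitochondrial transcription factor (1.33 ± 0.11), were also called per the authors' deposited table. Other regulator genes were not called: Nrf1 stood at 0.09 ± 0.18 (adjusted p = 0.697), Yy1 at 0.28 ± 0.24 (adjusted p = 0.322) and the Gabpa partner Gabpb1 at 0.11 ± 0.20 (adjusted p = 0.693) per the authors' deposited table. The 95% interval of Nrf1 was -0.25 to 0.43 per the authors' deposited table. Gabpb2 (0.59 ± 0.29, adjusted p = 0.0653), Nfe2l2 (-0.10 ± 0.10, adjusted p = 0.421) and Pprc1 (-0.18 ± 0.39, adjusted p = 0.708) were not called either per the authors' deposited table, though Gabpb2 was when fold changes were centred on the median of all genes (adjusted p = 0.0405). Ppargc1a is also among the brown adipocyte markers.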

How the data were processed

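The mRNA comparison covers 4 iBAT and 4 eWAT samples. Per the labels' protocols, RNA from TRIzol and RNeasy columns went into an Illumina library kit that keeps the strand. Named without roles in the submitters' processing notes are kallisto 0.45.0, the GRCm38 and mm10 builds, DESeq and DESeq2. Per the file headers, the base mean is a signal: counts divided by size factors, averaged by the authors over all samples. The log2 fold changes and their SEs are log2 values the authors deposited. The p-values and adjusted p-values are the authors' too; Benjamini-Hochberg adjustment of the deposited p-values gave the adjusted ones within 2.4e-07. For all 49 members the deposited p was smaller than that of fold change over SE, and within a factor of 10 of it; the sources used here do not state whether fold changes were shrunk.

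Ensembl identifiers were matched to symbols (18758 of 18947; 189 had none). Implied tissue means are 2 × base mean split in the ratio of the fold change; they carry no error of their own. Intervals cover 95% under a normal error. Calculations used Python 3.11.15 with pandas 2.3.3, numpy 2.4.6 and scipy 1.17.1, and the adjustment was tested on simulated data. Members, gene lists and modules were chosen with earlier results of these data known. A core gene is counted in every total but not reported here by itself. The rule named all other core genes and all assembly genes, members not called, the 3 highest and 3 lowest called supernumerary genes, Ndufa4, Ndufa4l2, Ndufab1, all mitochondrially encoded genes and regulators, and the extremes of other lists; further genes were added after their values were seen. Alternatives were p from fold change over SE, centring on the median of all genes, a log2 fold change of at least 1, an adjusted p under 0.01, a base mean of at least 10, and other member lists. Protein sequences and the miRNA and CLIP data were not used here.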

Additional observations from a re-analysis of the deposited data

How the results depend on the processing

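The count of 44 members higher in iBAT and 0 lower was 44 and 0 with p from fold change over SE, with centred fold changes and with a base mean of at least 10 as the filter, each adjusted over all genes tested, and 39 higher when a log2 fold change of at least 1 was asked for. At an adjusted p under 0.01 it was 44 higher and 0 lower. Without Ndufa4, Ndufa4l2 and the copies, a list chosen after seeing the data, 42 were higher of 44. The median of the members was 1.72 with centred fold changes. Among the counts and medians compared, 82 values under alternatives stayed close to those reported. Close meant within 1.5 times the count or, for medians, less than the members' median SE away. At a log2 fold change of at least 1 this took in falls from 6 to 4 Ndufaf genes and from 7 to 5 other assembly factors. Some of the 82 could not change, such as the core count when non-core genes were left out. Single genes were compared only with p from fold change over SE and with centred fold changes. Under these, Gabpb2 alone changed its call, passing with centred fold changes (0.68, adjusted p = 0.0405).

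No paired analysis was possible because the table gives 1 comparison per gene and no value per library. For the same reason leaving out each replicate, and another normalization of the counts, were not run. The 3 members with the lowest base means (Ndufa4l2, Ndufab1-ps and Ndufs6b) were those of the supernumerary class not called.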
